A study of Mus musculus with 8 samples.

Results

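Bcl6 and Bcl6b encode a pair of related transcriptional repressors. They are 2 of the 55335 genes in the deposited count table, found there by their GENCODE M21 symbols. They were selected on earlier results of these same libraries, in which the CPM of Bcl6b and its log2 fold change between the genotypes were known, and Bcl6 is its relative. Their difference between the genotypes is therefore described here and not tested.

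Both proteins carry a BTB domain, which recruits corepressors, and C2H2 zinc fingers, which bind DNA. BCL6 is best known as the factor that germinal centre B cells and follicular helper T cells need. In liver it is controlled by growth hormone through STAT5, is higher in males, represses female-biased genes, and opposes PPAR-alpha at genes of fatty acid oxidation. BCL6B is less studied and is known as a gene of endothelial cells.

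The libraries are bulk liver RNA from 8 female mice, each a separate animal, all fed ethanol by the NIAAA model, a chronic liquid diet that ends with a binge. Mice 28, 34, 37 and 39 were labelled Ripk1-hepKO, with Ripk1 deleted in hepatocytes, and mice 29, 32, 40 and 41 were labelled Ripk1-Con. They are called knockouts and controls below, by those labels. RIPK1 is a kinase and scaffold of death receptor signalling. The labels name no Cre driver and no age. Mice not fed ethanol were not analysed here.

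Ripk1 itself stood at 38.1, 35.8, 33.1 and 23.1 CPM (the count scaled to library size with TMM factors) in knockout mice 28, 34, 37 and 39. It stood at 34.3, 53.6, 27.8 and 34.2 CPM in control mice 29, 32, 40 and 41. The groups overlapped, so the gene count neither separates nor contradicts the labels, and every direction below rests on them. Totals ran from 28038390 to 67328158 counts per library. Mouse 28 was least like the others, with a mean Spearman correlation of 0.954 against 0.974 to 0.980. Liver markers were present in every library: the 12 hepatocyte genes summed to 121304 to 167512 CPM. The male-biased genes Cyp4a12a, Cyp4a12b, Hsd3b5, Slco1a1 and Moxd1 were too low to be tested, with at most 0.598 CPM in any mouse.

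Bcl6 (ENSMUSG00000022508) lies on the minus strand of chromosome 16 at 23965052 to 23988852 of GRCm38, and Bcl6b (ENSMUSG00000000317) on the minus strand of chromosome 11 at 70224128 to 70229798. The coding transcript of Bcl6 has 10 exons and 2121 coding bases, and that of Bcl6b has 9 exons and 1422 coding bases. The longest run of bases that these transcripts share is 17, well short of a read. Gm37419, annotated on the opposite strand within Bcl6, held at most 1 count in any library.

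The RefSeq promoter table (GRCm38.p6) held 2 start sites for Bcl6 and matched 1 of the 2 genes. The 250 bases before each start are shown because Bcl6 is known to answer to STAT factors and to bind its own gene. Capitals mark the letters TTCNNNGAA, the STAT pattern, searched on both strands. The stricter TTCCTNGAA, taken here as the BCL6 pattern, lies inside it. Bases are given 5′ to 3′ on the gene's strand, the first from chr16:23988853-23989102, before the annotated first exon, and the second from chr16:23981284-23981533, within an intron of the GENCODE gene.

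Bcl6 start site 1: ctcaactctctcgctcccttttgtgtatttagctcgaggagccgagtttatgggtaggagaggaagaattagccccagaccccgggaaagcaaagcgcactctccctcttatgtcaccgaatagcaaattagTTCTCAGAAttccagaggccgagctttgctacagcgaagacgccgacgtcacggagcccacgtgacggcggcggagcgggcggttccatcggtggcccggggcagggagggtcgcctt

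Bcl6 start site 2: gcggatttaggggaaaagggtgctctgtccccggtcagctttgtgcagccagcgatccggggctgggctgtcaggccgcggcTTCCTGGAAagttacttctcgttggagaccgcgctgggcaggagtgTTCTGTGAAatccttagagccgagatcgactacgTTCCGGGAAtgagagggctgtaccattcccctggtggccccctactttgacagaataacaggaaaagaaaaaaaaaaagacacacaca

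Upstream of start site 1 there was 1 match, TTCTCAGAA, at 118 to 110 bases before the start. Upstream of start site 2 there were 3 matches, and the farthest, TTCCTGGAA at 168 to 160 bases before the start, also fits the BCL6 pattern. Of 32851 promoter windows of 300 bases in the table, 8.30% held TTCNNNGAA and 1.59% held TTCCTNGAA. The ETS patterns CCGGAAGT (in 3.89% of windows) and ACAGGAAG (3.58%) were not among the letters upstream of either start. A match describes these letters and does not show that a factor binds there.

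Bcl6b was higher in all 4 knockout mice than in any control. It stood at 4.44, 2.87, 3.43 and 3.03 CPM in knockout mice 28, 34, 37 and 39. In control mice 29, 32, 40 and 41 it stood at 0.856, 1.41, 0.830 and 1.02 CPM. The lowest knockout value was 2.04 times the highest control value. The knockouts averaged 3.44 ± 0.703 CPM and the controls 1.03 ± 0.266 (SD, n = 4 each), a fitted fold of 3.32 and a log2 fold change of 1.73 ± 0.25 (SE).

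These levels rest on few reads, from 103 to 242 counts in knockouts and from 25 to 87 in controls. The exact 95% Poisson intervals cover counting error only. Their closest pair between the groups was 2.34 to 3.48 CPM in knockout mouse 34 and 1.13 to 1.73 in control mouse 32. Since Bcl6b was chosen on this gap, that these intervals do not meet is no further evidence of a genotype difference. Without mouse 28 the knockout mean was 3.11 ± 0.289 CPM (SD, n = 3) and the log2 fold change 1.58.

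Of the 15234 genes tested, 306 (2.01%) were higher in knockouts with groups that did not overlap, and Bcl6b was 1 of them. In edgeR's quasi-likelihood test 0 genes (0% of those tested) passed an FDR of 0.05, with 1017 genes at an unadjusted p under 0.05. limma voom called 0 genes. The DESeq2 Wald test called 14 genes higher (0.0923% of 15173 with an adjusted p) and 22 lower (0.145%), with Bcl6b among the 14. Since the choice of Bcl6b used this contrast, its place in these counts is no further evidence.

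Bcl6 showed no such separation. It stood at 28.2, 10.5, 7.54 and 10.8 CPM in knockout mice 28, 34, 37 and 39 and at 10.6, 7.87, 14.0 and 7.84 CPM in control mice 29, 32, 40 and 41. Mouse 28 alone stood apart, at 2.02 times the next highest animal and 2.86 times the mean of the other 7, while the remaining knockout mice lay within the control range or just below it. The knockouts averaged 14.3 ± 9.44 CPM and the controls 10.1 ± 2.93 (SD, n = 4 each), with a log2 fold change of 0.51 ± 0.40 (SE). Without mouse 28 the knockout mean was 9.61 ± 1.80 CPM (SD, n = 3) and the log2 fold change -0.07 ± 0.23.

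Counts of Bcl6 ran from 323 to 1541, and the 95% Poisson interval in mouse 28, 26.9 to 29.7 CPM, lay far above that of mouse 40, 12.7 to 15.4. Per kilobase of annotated exon, Bcl6 was the more abundant of the pair: 2.13 against 0.926 CPM per kb in knockouts, and 1.51 against 0.277 in controls. On that per-kilobase scale Bcl6b made up 28.3%, 49.5%, 82.0% and 50.4% of the Bcl6 level in mice 28, 34, 37 and 39. In the controls 29, 32, 40 and 41 it made up 14.5%, 32.2%, 10.7% and 23.5%, so the highest control, mouse 32, lay above mouse 28. Annotated exon came to 6700 bases for Bcl6, with a noncoding transcript of 3933 bases included, and to 3719 for Bcl6b. The coding transcripts are closer in length, at 3525 and 3366 bases, and with those lengths the percents would be lower.

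**Figure D1:**
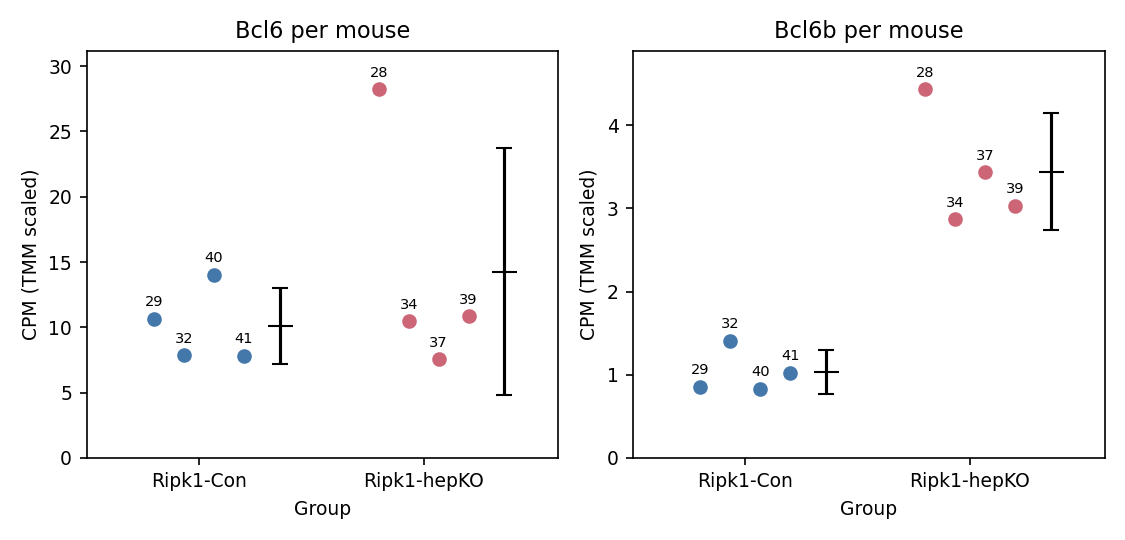
Level of Bcl6 (left) and Bcl6b (right) in TMM-scaled CPM, 1 point per mouse labelled by its number, with the mean ± SD of each group of 4 beside the points. Bcl6b runs from 2.87 to 4.44 CPM in knockouts and from 0.830 to 1.41 in controls, while the Bcl6 groups overlap and only mouse 28, at 28.2 CPM, stands apart.

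Endothelial cells are the known site of Bcl6b, and their markers did not separate the groups as Bcl6b did. Cdh5, the VE-cadherin of endothelial junctions, stood at 30.8, 21.5, 17.4 and 24.4 CPM in knockout mice 28, 34, 37 and 39 and at 21.2, 16.0, 16.5 and 23.0 in control mice 29, 32, 40 and 41. Pecam1, the adhesion molecule CD31, stood at 26.0, 20.4, 18.7 and 23.3 CPM and at 20.3, 15.1, 17.0 and 21.5, in the same order. The groups overlapped for both genes, with log2 fold changes of 0.30 ± 0.19 for Cdh5 and 0.26 ± 0.15 for Pecam1 (SE, with edgeR's adjusted p = 0.787 and 0.771). In bulk tissue, fewer cells of a type and less RNA per cell cannot be told apart.

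Set against these markers in the same mouse, Bcl6b kept its separation. It amounted to 14.4%, 13.4%, 19.8% and 12.4% of the Cdh5 CPM in mice 28, 34, 37 and 39 and to 4.04%, 8.78%, 5.03% and 4.45% in mice 29, 32, 40 and 41. Against Pecam1 it amounted to 13.0% to 18.3% in knockouts and 4.21% to 9.31% in controls. The log2 ratio differed by 1.47 between the groups with Cdh5 and by 1.49 with Pecam1, against 1.73 for Bcl6b alone. Since Bcl6b was chosen on that gap and the markers differed little between the groups, its separation here is no further evidence. Bcl6 amounted to 57.0% ± 23.2 of the Cdh5 CPM in knockouts and 54.6% ± 21.5 in controls (SD, n = 4 each), with overlapping groups.

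**Figure D2:**
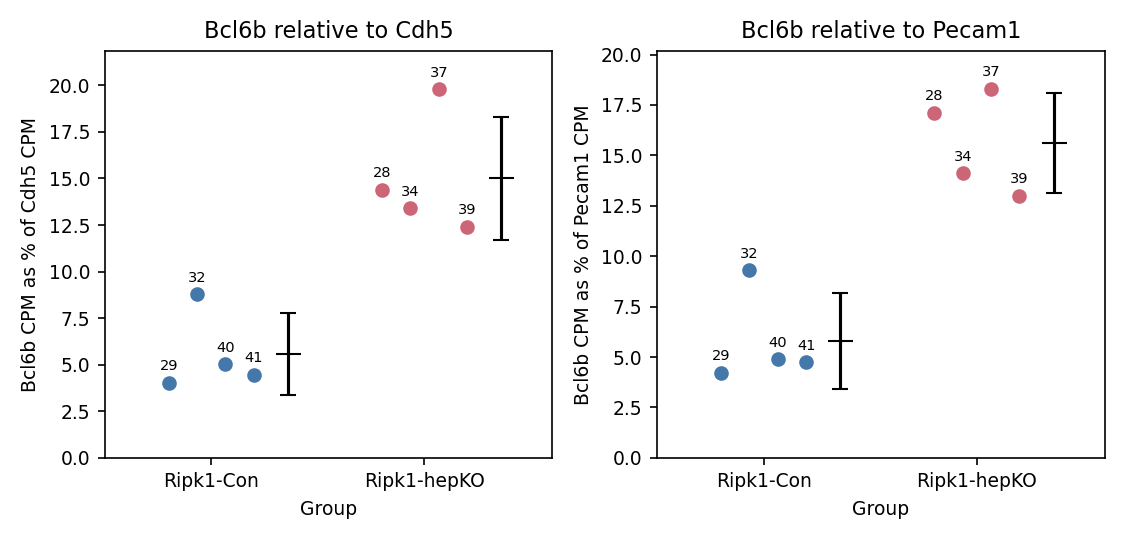
Bcl6b CPM as a percent of the CPM of Cdh5 (left) and of Pecam1 (right), 1 point per mouse labelled by its number, with the mean ± SD of each group of 4. The lowest knockout mouse is at 12.4% of Cdh5 and the highest control, mouse 32, at 8.78%.

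Of 28 pan-endothelial markers, 21 lay above 0 and 7 below, and the median log2 fold change was 0.13, beside 51.8% above 0 and a median of 0.01 over all genes tested. Neither edgeR nor DESeq2 called any. Their log2 fold changes ran from -0.25 (Notch4) to 0.92, all below that of Bcl6b. Nos3, the endothelial nitric oxide synthase, had the highest, at 4.71 ± 2.55 CPM in knockouts and 2.49 ± 0.171 in controls, and mouse 28 stood at 8.45. Fli1, an ETS factor of endothelial and blood cells, stood at 3.58 ± 0.664 against 2.15 ± 0.542 CPM. Groups did not overlap for 2 of the 28, Nos3 and Fli1, beside 2.01% of all genes tested in the higher direction and 2.09% in the lower (edgeR adjusted p = 0.742 each).

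The most abundant of the list overlapped between the groups: Ptprb, a receptor phosphatase, stood at 40.7 ± 26.7 against 43.8 ± 19.4 CPM, and Eng, a coreceptor for BMP ligands, at 40.2 ± 8.42 against 40.1 ± 8.30. Markers of sinusoidal endothelium were above 0 in 9 of 14 cases, with a median of 0.04 and 0 called by edgeR or DESeq2. Stab2, a scavenger receptor, stood at 42.5 ± 8.89 against 44.5 ± 12.2 CPM, and Fcgr2b at 40.3 ± 11.0 against 39.5 ± 10.1. Clec1b, at 8.78 ± 1.97 against 6.41 ± 2.17, and Bmp2, at 14.6 ± 4.34 against 11.3 ± 3.66, had the smallest p of these. Without mouse 32 the pan-endothelial median was -0.04. That control had the lowest summed level of the list, 234.9 CPM against 281 to 408 in the other 7 mice.

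Relations across mice were tested on deviations from each genotype's mean of log2(CPM + 1), which leave out the difference that chose the genes. There were 9 relations over 8 mice, each with an exact two-sided permutation test of mice within genotype (576 arrangements), and 0 passed after Benjamini-Hochberg adjustment over the 9. Bcl6b had Pearson r = 0.03 with Pecam1, 0.22 with Cdh5 and -0.45 with the mean of the pan-endothelial list (exact permutation p = 0.920, 0.634 and 0.299; adjusted 0.920, 0.815 and 0.672). Spearman rho was 0.12, 0.14 and -0.38 (exact permutation p = 0.806, 0.785 and 0.396; adjusted 0.882, 0.882 and 0.713). Left without mice 28 and 32, the farthest from the median of Bcl6b, r was 0.05, -0.10 and -0.18. Levels of Bcl6b fell into separate groups by genotype, so no correlation over all 8 mice is given for it.

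Bcl6 had r = 0.51 with Pecam1, 0.60 with Cdh5 and 0.34 with the endothelial list within genotype (exact permutation p = 0.233, 0.205 and 0.377; adjusted 0.672, 0.672 and 0.678), and rho was 0.45, 0.50 and 0.38 (exact permutation p = 0.288, 0.25 and 0.385; adjusted 0.713 each). Without mice 28 and 40, the farthest from the median of Bcl6, r was 0.52, 0.63 and 0.56. Without mouse 28 alone it was 0.13, 0.08 and 0.48. Groups overlapped in these measures, so r over all 8 mice could be given as well: 0.57, 0.64 and 0.40 (exact permutation p = 0.147, 0.0813 and 0.270; adjusted over these 3, 0.221, 0.221 and 0.270), with rho = 0.38, 0.38 and 0.57 (exact permutation p = 0.360, 0.360 and 0.151; adjusted 0.360 each). Without mice 28 and 37 the same r was 0.04, -0.13 and 0.45. It was 0.0824, 0.0534 and 0.449 without mouse 28 alone and 0.555, 0.597 and 0.381 without mouse 37 alone, so the first 2 rest on mouse 28.

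No relation between the pair passed either. Within genotype r between Bcl6 and Bcl6b was 0.34 and rho -0.10 (exact permutation p = 0.502 and 0.882; adjusted 0.753 and 0.882). Without mouse 28 r was -0.80 (exact permutation p = 0.0833; adjusted 0.527). Without mice 28 and 40 it was -0.76.

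Genes of fatty acid oxidation, which PPAR-alpha activates and BCL6 is known to repress, lay mostly below 0, a pattern that was known when the list was written. Of 47 genes, 42 lay below 0 and 5 above, the median log2 fold change was -0.36, and edgeR called 0. DESeq2 called 4 lower, Cyp4a10, Cyp4a14, Crat and Hadhb, beside 0.145% of all genes; the last 2 are named after their values were seen. Groups did not overlap for 18 of them, all lower, beside 2.09% of all genes tested. Averaged over the 47 genes, log2(CPM + 1) was 7.59, 7.03, 7.59 and 7.27 in knockout mice 28, 34, 37 and 39 and 8.09, 7.88, 7.64 and 7.73 in control mice 29, 32, 40 and 41. Every knockout mouse lay below every control, though mice 28 and 37 came close to mouse 40.

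Ppara, the receptor itself, stood at 34.9, 45.7, 101.6 and 62.0 CPM in knockouts and 138.5, 129.3, 77.1 and 135.3 in controls, in the same order of mice. Its groups overlapped, with a log2 fold change of -0.98 ± 0.32 (SE, with edgeR's adjusted p = 0.742). Cpt1a, which admits long-chain acyl groups to mitochondria, stood at 397.5 ± 121.8 against 576.6 ± 79.1 CPM. Cyp4a10 and Cyp4a14, fatty acid omega-hydroxylases, stood at 474.0 ± 96.6 against 891.5 ± 211.3 CPM and at 813 ± 249 against 1647 ± 300.3 (DESeq2 adjusted p = 0.026 and edgeR adjusted p = 0.742 for each).

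The lowest level of the fatty acid oxidation list was in mouse 34, where Bcl6 stood at 10.5 CPM, within the control range. Mouse 28, with the highest Bcl6 and the library least like the others, had the joint highest list level of its group. Whether BCL6 acts on these genes here was not tested. Within genotype Bcl6 had r = 0.18 and rho = 0.17 with the list (exact permutation p = 0.793 and 0.719; adjusted 0.893 and 0.882), and r was -0.21 without mice 28 and 40 and -0.45 without mouse 28 alone. Bcl6b was high in the 4 mice where the list was low, which the choice of both on genotype fixes. Within genotype its r with the list was 0.54 and its rho 0.69, the opposite sign (exact permutation p = 0.229 and 0.101; adjusted 0.672 and 0.713), and r was 0.51 without mice 28 and 32. It ran from 0.35 to 0.82 with single mice left out, the ends being mice 28 and 29, and was 0.30 with library size alone and 0.19 without mice 28 and 40. No pooled correlation could be given where the list or Bcl6b is a term, since neither overlapped between the genotypes. None of the 36 genes of the list with a promoter in the RefSeq table held TTCCTNGAA there, beside 1.86% of all 27025 genes, and 3 of them (8.33%; Cpt2, Hadha and Hadhb) held TTCNNNGAA, beside 9.55%. At a share as low as 1.86%, little can be read from 0 of 36 genes.

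**Figure D3:**
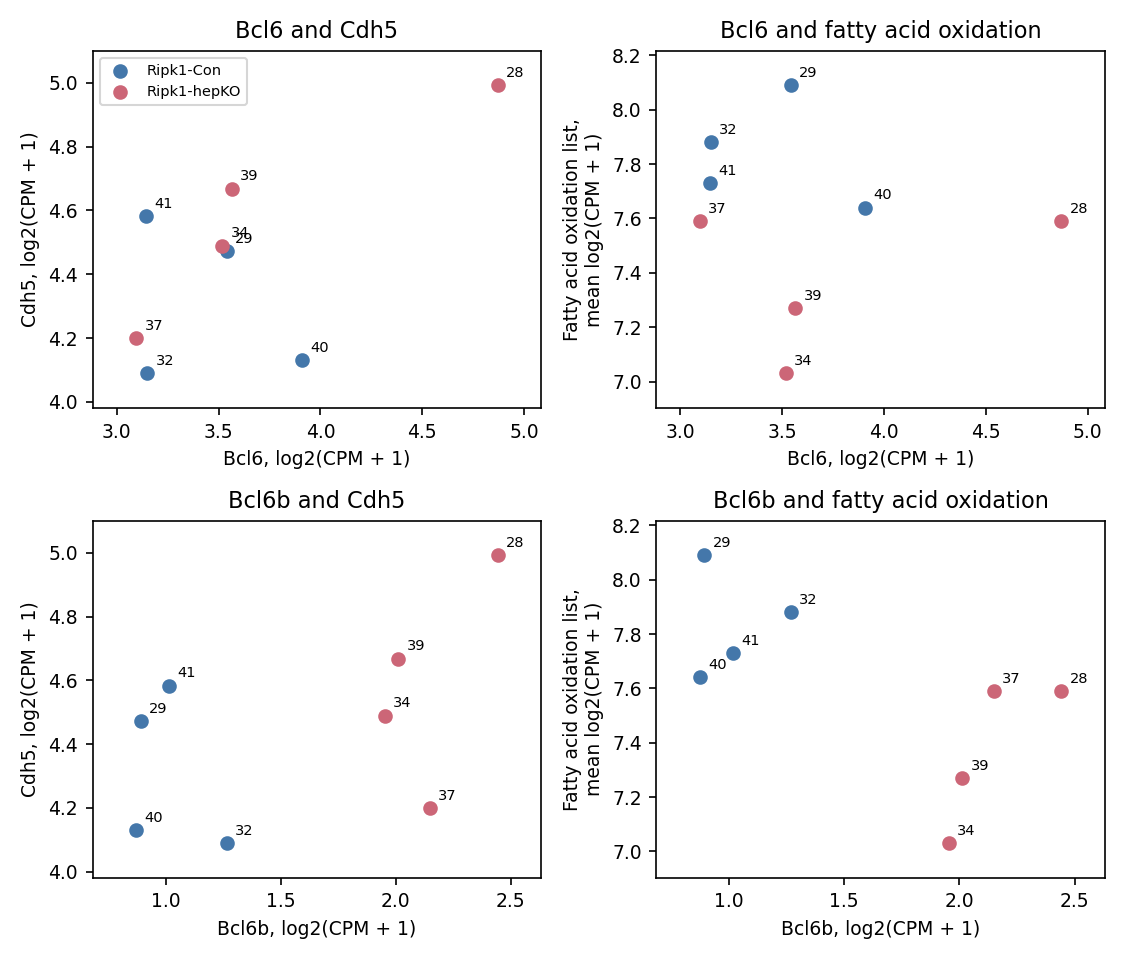
Bcl6 (top) and Bcl6b (bottom) on the horizontal axis as log2(CPM + 1), against Cdh5 (left) and the mean level of 47 fatty acid oxidation genes (right) as log2(CPM + 1), 1 point per mouse labelled by its number and coloured by group. Bcl6b splits the mice by genotype, with r = 0.22 for Cdh5 and 0.54 for the list within genotype, and mouse 28 lies far to the right in the Bcl6 panels.

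Of 21 listed relatives with a BTB domain and zinc fingers, the pair included, 20 were tested, 11 above and 9 below 0. Groups did not overlap for 1 of the 20, Bcl6b, which was chosen on this contrast, beside 2.01% of all genes higher and 2.09% lower. Their median log2 fold change was 0.02, or -0.13 without mouse 28. edgeR called 0 of them and DESeq2 called Bcl6b alone. Zbtb20, a repressor abundant in hepatocytes, stood at 113 ± 35.4 against 105 ± 26.4 CPM, and Zbtb7b at 66.6 ± 6.22 against 71.9 ± 8.21. Zbtb44 stood at 31.2 ± 4.05 against 44.0 ± 9.55 CPM (-0.50 ± 0.17 in log2, SE, with edgeR's adjusted p = 0.742). Zbtb7c had the next highest log2 fold change after Bcl6b, 1.32 ± 0.59, at only 0.469 against 0.192 CPM; it is named here after its value was seen.

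Corepressors that BCL6 recruits were near 0 as a list: 10 of 19 lay above 0, with a median of 0.07 and 0 called by edgeR or DESeq2. Ncor1, a corepressor that bridges to histone deacetylase 3, stood at 99.0 ± 4.24 CPM in knockouts and 114 ± 8.81 in controls (edgeR adjusted p = 0.754). Bcor, which binds the BTB domain, stood at 18.2 ± 4.56 against 20.5 ± 2.15 CPM. Tbl1xr1, part of the NCOR complex, stood at 56.8 ± 38.7 against 51.4 ± 11.9 CPM, with mouse 28 at 114. Mta3, which joins BCL6 to the NuRD complex, stood at 11.4 ± 1.52 against 8.88 ± 1.15 CPM, and Hdac3 at 37.9 ± 11.3 against 28.9 ± 2.66 (edgeR adjusted p = 0.742 and 0.754).

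Signals that act on Bcl6 were balanced around 0, with 9 of 17 above 0, a median of 0.01 and 0 called by edgeR or DESeq2. Ghr, the growth hormone receptor, stood at 239 ± 52.8 against 259 ± 31.99 CPM and Stat5b, its transcription factor, at 41.03 ± 10.99 against 40.8 ± 5.66. Il6st, the shared receptor chain of IL-6 cytokines, stood at 198 ± 42.7 against 194 ± 29.5 CPM. Foxo1 stood at 37.8 ± 11.3 against 51.6 ± 9.82 CPM and Il6ra at 57.6 ± 24.8 against 90.2 ± 18.9 (edgeR adjusted p = 0.754 and 0.769).

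Of 7 growth hormone and STAT5 targets, 3 lay above 0 and the median was -0.16. Socs2, a feedback inhibitor of this pathway, stood at 18.2, 11.8, 6.42 and 8.54 CPM in knockout mice 28, 34, 37 and 39 and at 15.8, 13.1, 15.6 and 7.79 in control mice 29, 32, 40 and 41. Mouse 28 was the highest of the 8 for Socs2, as for Bcl6, and mouse 37 the lowest for both. Cish, a further STAT5 feedback gene, stood at 16.6 ± 1.78 against 12.9 ± 5.21 CPM, and Igf1 at 454.9 ± 189.7 against 347.9 ± 49.4, with mouse 28 at 724. Igfals stood at 34.5 ± 9.93 against 38.5 ± 8.61 CPM and Onecut1 at 16.9 ± 5.66 against 26.4 ± 15.7.

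Female-biased liver genes, a class that BCL6 is known to repress, lay below 0 in 17 of 20 cases, the median log2 fold change was -0.32, and edgeR and DESeq2 called 0. Their mean level was 6.34, 6.56, 6.80 and 7.01 on the log2(CPM + 1) scale in knockout mice 28, 34, 37 and 39 and 7.04, 7.04, 7.09 and 6.95 in control mice 29, 32, 40 and 41. Mouse 28, with the highest Bcl6, had the lowest level, but mouse 39 lay within the control range and mouse 37, with the lowest Bcl6, lay below it. Whether BCL6 acts on this class here was not tested. Cyp3a41a and Cyp3a41b, near-identical cytochromes whose reads may be split between them, stood at 1257 ± 323 against 1611 ± 199 CPM and at 1084 ± 286 against 1342 ± 216. Acot4, a peroxisomal thioesterase that PPAR-alpha also induces, stood at 118 ± 57.1 against 245 ± 55.1 CPM. Atp6v0d2, a proton pump subunit, went the other way, at 11.1 ± 5.64 against 4.70 ± 1.59 CPM (edgeR adjusted p = 0.742 for both). Groups did not overlap for these 2 of the 20, 1 higher and 1 lower, beside 2.01% of all genes tested higher and 2.09% lower.

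Male-biased genes gave a median of -0.07 over the 15 tested, 6 above 0. Gstp1 stood at 531.8 ± 119 against 444.8 ± 99.2 CPM and Mup3 at 360.2 ± 32.5 against 421.9 ± 133.5. Ugt2b38 stood at 13.6 ± 2.24 against 18.5 ± 1.10 CPM and Mup1 at 3.13 ± 1.29 against 6.98 ± 2.39. The Mup genes are close copies, so their single counts are uncertain.

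Genes that BCL6 is known to repress in lymphocytes and macrophages lay above 0 in 17 of 23 cases, with a median of 0.38 and 0 called by edgeR or DESeq2. That median fell to 0.15 when mouse 28 was left out, to 0.20 for mouse 40 and to 0.06 for the pair of them. Prdm1, the repressor that opposes BCL6 in B cells, stood at 0.587 ± 0.198 against 0.447 ± 0.313 CPM. Ccl2, a monocyte chemokine, stood at 2.01 ± 2.10 against 0.646 ± 0.261 CPM, with mouse 39 at 5.05, and Ccl3 at 0.426 ± 0.151 against 0.199 ± 0.0862. Cflar, an inhibitor of death receptor signalling, lay below 0, at 104 ± 15.6 against 119 ± 18.3 CPM.

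**Figure D4:**
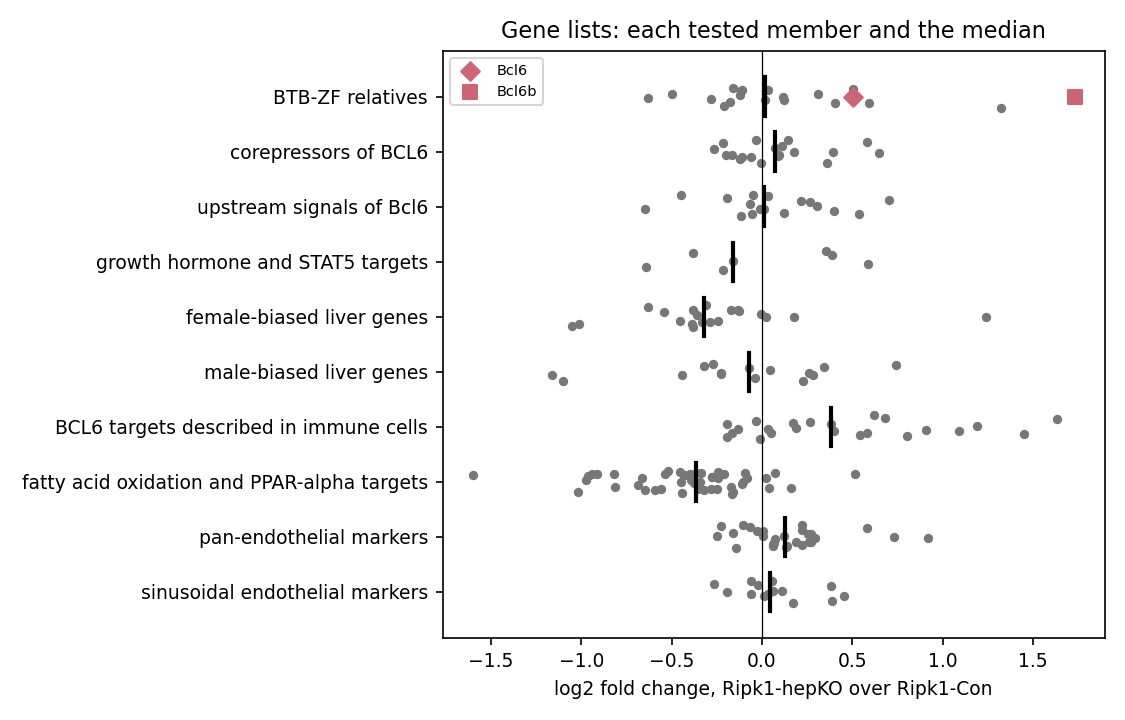
Log2 fold change, Ripk1-hepKO over Ripk1-Con, of each tested gene (grey points, spread vertically for legibility) in 10 lists, with each list's median as a black bar and Bcl6 and Bcl6b marked in the top row. Bcl6b, at 1.73, lies to the right of every other point, and the fatty acid oxidation and female-biased lists have medians of -0.36 and -0.32.

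Cells that are known for Bcl6 left little RNA in these livers. The B cell and germinal centre list had 6 of 10 genes tested, and its sum ran from 6.94 to 22.2 CPM in knockouts and from 4.98 to 11.2 in controls. Mouse 28 had the highest sum, 22.2 CPM. Of that sum 14.8 CPM were S1pr2, a sphingosine phosphate receptor that vessels also express, while Ighm stood at 4.16 and Cd22 at 1.74. The T cell and follicular helper list had 8 of 12 genes tested, with sums of 3.92 to 6.07 CPM in knockouts and 3.42 to 5.08 in controls, and Cxcr5, Pdcd1 and Il21 were too low to be tested.

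Mouse 28 also had the highest summed level of stellate cell markers, 450 CPM against 260.3 to 349.8 in the other 7, of cholangiocyte markers, 62.7 against 13.5 to 35.6, and of neutrophil markers, 47.7 against 3.62 to 35.6. Kupffer cell and macrophage markers summed to 368 CPM there, within the 92.1 to 386 of the others. Their part in the high Bcl6 of mouse 28 was not tested. Genes of fasting, glucocorticoid and clock control had a median of -0.04, with 10 of 21 above 0. Their log2 fold changes ran from -0.75 (Klf9) to 1.64 (Sgk1). Tat and Pck1, enzymes of amino acid breakdown and gluconeogenesis, stood in mouse 28 at 3860 and 4587 CPM, against 566 to 1769 and 1117 to 3049 in the other 7. Klf9, a glucocorticoid-responsive factor, stood at 84.4 ± 11.4 against 142 ± 26.3 CPM, with groups that did not overlap and a log2 fold change of -0.75 ± 0.16 (SE). DESeq2 called it (adjusted p = 0.0309) and edgeR did not (adjusted p = 0.742). Clock stood at 31.0 ± 5.76 against 38.5 ± 0.745.

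Genes with the pattern most like each of the pair were ranked by Pearson r of log2(CPM + 1) over the 8 mice, among 11413 genes of at least 1 CPM on average. All share the same libraries and depth, and no p is given. For Bcl6b this ranking repeats the genotype gap on which it was chosen, since groups did not overlap for any of the 10 genes at its ends, so they are named without r. The high end held Sp140, Akap17b, Sh3bp2, Rras and E2f1, and the low end Wdr81, Taok3, Lonp2, Xk and Rbm4b. Rras, a small GTPase of vessel walls, stood at 13.4 to 23.1 CPM in knockouts and 8.77 to 11.1 in controls. Sp140, a chromatin reader of immune cells, stood at 4.10 to 5.72 against 2.26 to 3.31 CPM, and Lonp2, the peroxisomal protease, at 215 to 257 against 281 to 309. With the genotype means removed, groups overlapped for all 6 genes at the ends: Cd81 (r = 0.99), Capns1 (0.98) and Itgb1 (0.98), and at the low end Zfp629 (-0.99), Gtf3c5 (-0.98) and Cntrob (-0.98).

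For Bcl6 the highest were Gspt2 (r = 0.99), Slc16a1 (0.98), Vldlr (0.98), Rpl27a (0.97) and Gtf2e2 (0.97), and the low end held Spidr (-0.99), Pgap1 (-0.99), Vps13a (-0.99) and Ccdc157 (-0.98). Without mouse 28 they lay at 0.88 to 0.96 and -0.98 to -0.92. Slc16a1, the lactate and ketone carrier MCT1, stood at 172 CPM in mouse 28 and at 49.6 to 84.1 in the other 7, with mouse 40 second and mouse 37 last, as for Bcl6. With the genotype means removed, Gspt2, Rabggtb and Ldhb led (0.99 each to 2 decimals), and Vps13a and Spidr were at the low end (-0.99 each). This ranking was not repeated without mouse 28, which stood apart for Bcl6. Every r named is among the most extreme of all genes compared. Rpl27a and Gspt2 have near copies elsewhere in the genome, so their counts are uncertain.

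Within 20 kb of Bcl6b on chromosome 11, 9 annotated genes lie. The 3 microRNA genes had no counts, and the groups overlapped for the 6 others, where 2.01% of all genes were higher and 2.09% lower without overlap, so little can be read from 6 genes. Slc16a13, the nearest toward lower coordinates (70216789 to 70221064, the same strand), stood at 1.68 ± 0.628 CPM in knockouts and 2.89 ± 0.540 in controls, and Slc16a11 at 6.56 ± 1.02 against 6.50 ± 0.650. Gm21988 stood at 25.8 ± 6.25 against 18.5 ± 4.40 CPM, but it overlaps Rnasek and 0610010K14Rik on the same strand, so the counts of these 3 genes are uncertain. Alox12, an arachidonate lipoxygenase, stood at 1.18 ± 0.641 against 0.499 ± 0.266, a log2 fold change of 1.27 ± 0.53. These neighbours were chosen by position after the values of Bcl6b were known.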

How the data were processed

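Poly(A)-selected, strand-specific liver libraries of 8 mice were sequenced from both ends, per the labels' protocols. The authors deposited raw counts per Ensembl gene, in 1 table of 55335 genes without normalization. Per the submitters' processing notes, DESeq2 1.38.1, StringTie 2.2.1, STAR 2.5.2b, FastQC 0.11.5 and the build GRCm38.p6 were used, in roles not stated. The counting tool, its strand setting and the annotation are not given in the sources used here. GENCODE M21 matched 55154 gene IDs and 181 had no match. Promoters came from RefSeq (GRCm38.p6).

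The deposited counts went into edgeR 4.0.16 (R 4.3.3): filterByExpr by genotype, TMM, a robust quasi-likelihood fit of genotype, and Benjamini-Hochberg adjustment over 15234 genes (FDR 0.05). Standard errors (SE) of fold changes were derived from the quasi-likelihood F statistic. DESeq2 1.42.0 and limma 3.58.1 were alternatives, beside other scalings and filters, and each mouse left out. The fit was checked on simulated counts. No 2 libraries agreed within sampling noise (chi-square per degree of freedom of at least 36.9).

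The genes and the 18 lists were chosen with earlier results of these data known. Lists are described by counts and medians, with no list test. The text names a fixed set of genes, up to 2 members per list by level and up to 2 by smallest p in lists described gene by gene, and, for likeness, 5 genes at each end (3 with genotype means removed). Among the exceptions, Notch4 and Sgk1 are ends of ranges, and Crat, Hadhb and Zbtb7c were named after their values were seen. Cxcr5, Pdcd1, Il21 and some male-biased genes are named as untested, and neighbours by position. Some genes that this rule names are not reported here. Tests of relations are exact permutations.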

Additional observations from a re-analysis of the deposited data

Results flagged for a closer look

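Dixon's ratio at the 95% level was applied to 128 groups of 4 mice, covering 64 of the genes and lists named in the text, and 12 were past it, where chance gives about 1 in 20. In 3 cases mouse 28 was the high one among Ripk1-hepKO mice: Bcl6 at 28.2 CPM, Hdac3 at 54.8 and S1pr2 at 14.8. Mouse 39 was the high one of that group for Eng at 52.8 CPM, Bmp2 at 21.1 and Slc16a13 at 2.62. Among Ripk1-Con mice, mouse 40 was low for Ppara at 77.1 CPM and high for Hdac3 at 32.8. Mouse 29 was high for Cyp4a10 at 1207 CPM and Acot4 at 327.5, mouse 41 was high for Clec1b at 9.64, and mouse 32 was low for Fcgr2b at 24.5. Bcl6b was past it in neither group.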

How the results depend on the processing

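The DESeq2 Wald test called 36 genes where edgeR called 0 under each of its settings. The Bcl6b log2 fold change ran from 1.58 to 1.93 with single mice left out and was 1.49 without mice 28 and 40; that of Bcl6 ran from -0.07 to 0.72. The r of Bcl6 with Cdh5 over all 8 mice was 0.644 and reached 0.832 without mouse 40, with an adjusted exact permutation p of 0.05, at the threshold, but was 0.0534 without mouse 28. No other relation came to that threshold under an alternative. Within genotype, the r of Bcl6b with Pecam1 was -0.0421 with a pseudocount of 0.25, -0.244 with library size alone, -0.567 to 0.587 with single mice left out and -0.814 without mice 28 and 40. With Cdh5 it was -0.0420 with library size alone, -0.462 to 0.595 with single mice left out and -0.802 without both mice, and with the endothelial list -0.768 to 0.114 with single mice left out. The r of Bcl6 with fatty acid oxidation genes ran from -0.451 to 0.531 and was -0.213 without both mice, and that of Bcl6 with Bcl6b from -0.795 to 0.611 and was -0.759. The causes were not tested. Counts of 25 to 43 for Bcl6b in 3 controls limit its precision there.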
